A study of Homo sapiens with 8 samples.

Results

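The 10 genes DUSP1, DUSP4, DUSP5, DUSP6, SPRY2, SPRY4, SPRED1, IER2, IER3 and IER5 were followed on 8 one-colour Agilent arrays of KYSE850, an established human line of esophageal squamous cell carcinoma (ESCC). They encode dual-specificity phosphatases, sprouty and SPRED proteins and immediate-early response (IER) proteins, and were taken as every probe whose RefSeq accession maps to one of these symbols, among 20249 genes with a probe. The set was chosen by its results in the same comparison that is described here, KHSRP siRNA against control siRNA, with the lower level of IER3 as part of the choice. Levels and differences between these groups are therefore given as a description, with no p-value. Where a limma call of a member in this comparison is mentioned, it is counted beside the share over all probes and supports nothing.

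All 8 arrays came from the same cell line. In the control siRNA group, 4 arrays held RNA of cells given a control siRNA, and in the KHSRP siRNA group, 4 arrays held RNA of cells given siRNA against KHSRP, which the labels call a knockdown genotype. A small interfering RNA (siRNA) lowers the mRNA that it matches. The study used several KHSRP siRNAs in its cell work, and the labels do not say which one an array stands for, nor how long the cells were exposed. They also do not say whether replicates were separate cultures, so that p-values measure only the spread between these arrays, which may be technical.

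The RAS-ERK pathway carries growth factor signals through a chain of kinases (RAF, MEK, ERK) to the nucleus, where genes are switched on within minutes to hours. Several of these genes encode brakes on the pathway itself. Phosphatases of the DUSP family remove phosphate from ERK, p38 and JNK, sprouty proteins act near the receptor, and SPRED1 brings the RAS inhibitor neurofibromin to the membrane. The mRNAs of feedback genes are therefore often read as a record of ERK activity, and EGF receptor signalling that drives ERK is common in squamous carcinoma. KHSRP is an RNA-binding protein known for promoting the decay of mRNAs with AU-rich elements and the maturation of some miRNAs.

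The stretch around the transcription start was examined for the members that the results below turn on. RefSeq promoter windows of GRCh38.p14, each with 250 bases before and 50 after the start, were found for 7 of the 10 members, not for DUSP4, DUSP5 and IER3, and comprised 9 windows. The 4 motifs searched on both strands were the cAMP response element (CRE, TGACGTCA, a palindrome), the core that ETS factors bind (CCGGAA), the TATA box (TATAAA) and the CArG box of serum response factor. The CRE was found in 1.85% of all 35116 promoter windows, the ETS core in 17.2%, the TATA box in 11.5% and the CArG box in 1.29%. Among the member windows, DUSP1 held the CRE, from base 126 to 133 of its window, and the TATA box, from base 221 to 226, so that they ended 118 and 25 bases before the start. The ETS core was found for SPRY2, IER2 and IER5, and the CArG box for 0 of the 9 windows. A match describes the letters of the window only. The windows of DUSP1, whose groups stood apart, of DUSP6 and SPRY4, which were high on the same arrays, and of IER5, which was low on those arrays, are printed below from 5′ to 3′ with matches in capitals. They lie at chr5:172771146-172771445, minus strand, at chr12:89352452-89352751, minus strand, at chr5:142324198-142324497, minus strand, and at chr1:181088450-181088749, plus strand, in that order.
DUSP1: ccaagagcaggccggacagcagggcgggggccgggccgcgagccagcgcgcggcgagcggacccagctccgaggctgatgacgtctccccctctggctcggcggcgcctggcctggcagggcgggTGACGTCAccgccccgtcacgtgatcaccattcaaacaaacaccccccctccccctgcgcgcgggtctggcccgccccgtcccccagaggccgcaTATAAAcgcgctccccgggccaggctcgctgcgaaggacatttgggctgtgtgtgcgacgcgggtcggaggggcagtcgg
DUSP6: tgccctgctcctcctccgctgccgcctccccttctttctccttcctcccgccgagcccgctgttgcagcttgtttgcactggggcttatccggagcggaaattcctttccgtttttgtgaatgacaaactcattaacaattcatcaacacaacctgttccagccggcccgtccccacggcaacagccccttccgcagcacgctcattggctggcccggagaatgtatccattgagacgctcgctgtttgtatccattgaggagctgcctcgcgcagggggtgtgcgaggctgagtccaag
SPRY4: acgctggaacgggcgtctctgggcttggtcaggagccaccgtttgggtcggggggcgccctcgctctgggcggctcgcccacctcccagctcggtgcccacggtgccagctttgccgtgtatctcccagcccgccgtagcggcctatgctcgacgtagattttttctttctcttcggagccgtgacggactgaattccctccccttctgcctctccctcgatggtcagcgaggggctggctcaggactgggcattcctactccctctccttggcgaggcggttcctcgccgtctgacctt
IER5: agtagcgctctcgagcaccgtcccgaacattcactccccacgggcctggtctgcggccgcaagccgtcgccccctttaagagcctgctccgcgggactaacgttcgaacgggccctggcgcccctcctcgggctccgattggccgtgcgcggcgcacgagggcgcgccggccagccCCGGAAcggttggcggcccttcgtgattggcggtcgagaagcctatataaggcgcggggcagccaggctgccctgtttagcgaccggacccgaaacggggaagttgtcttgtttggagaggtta

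Between 45.1% and 49.4% of 42405 probes were well above background on an array, and no spot was saturated. KHSRP itself, read first as a check of the labels, had mean log2 levels of 6.08 ± 0.24 in the controls and 2.71 ± 0.19 after KHSRP siRNA (SD, n = 4 each) at probe A_23_P16157, a difference of -3.37 (SE 0.16, limma, Benjamini-Hochberg adjusted p = 5.95e-05). Every KHSRP siRNA array was below every control array. Levels are log2 signals relative to the 75th percentile of the array, so that 0 is the signal at that percentile. All 10 squamous epithelial markers were detected (KRT5, KRT6A, KRT14, KRT17, TP63, SOX2, SFN, PERP, DSG3 and ITGA6), and 9 of 12 markers of fibroblasts, endothelium and leukocytes were too dim to test. With bulk RNA, fewer cells of a kind and less RNA per cell cannot be told apart.

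The members were represented by 12 probes, of which 11 were bright enough to be tested, with at least 1 for each gene. Of the 10 genes, 7 were higher with KHSRP siRNA and 3 were lower. The median difference was 0.12 on the log2 scale, against 0.0058 for all 12125 genes tested. A probe is said to be called where its adjusted p was under 0.05. In this comparison 5.54% of 18761 tested probes were called, 1.92% as higher and 3.62% as lower, and among the members DUSP1 was called as higher and IER3 as lower. The groups did not overlap for these 2 genes and overlapped for the other 8, against 14.8% of all tested probes without overlap. Since the members were chosen on this comparison, nothing is read from these counts. In 5 genes (DUSP6, SPRY2, SPRY4, IER2 and IER5) the difference was smaller than its SE.

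**Figure D1:**
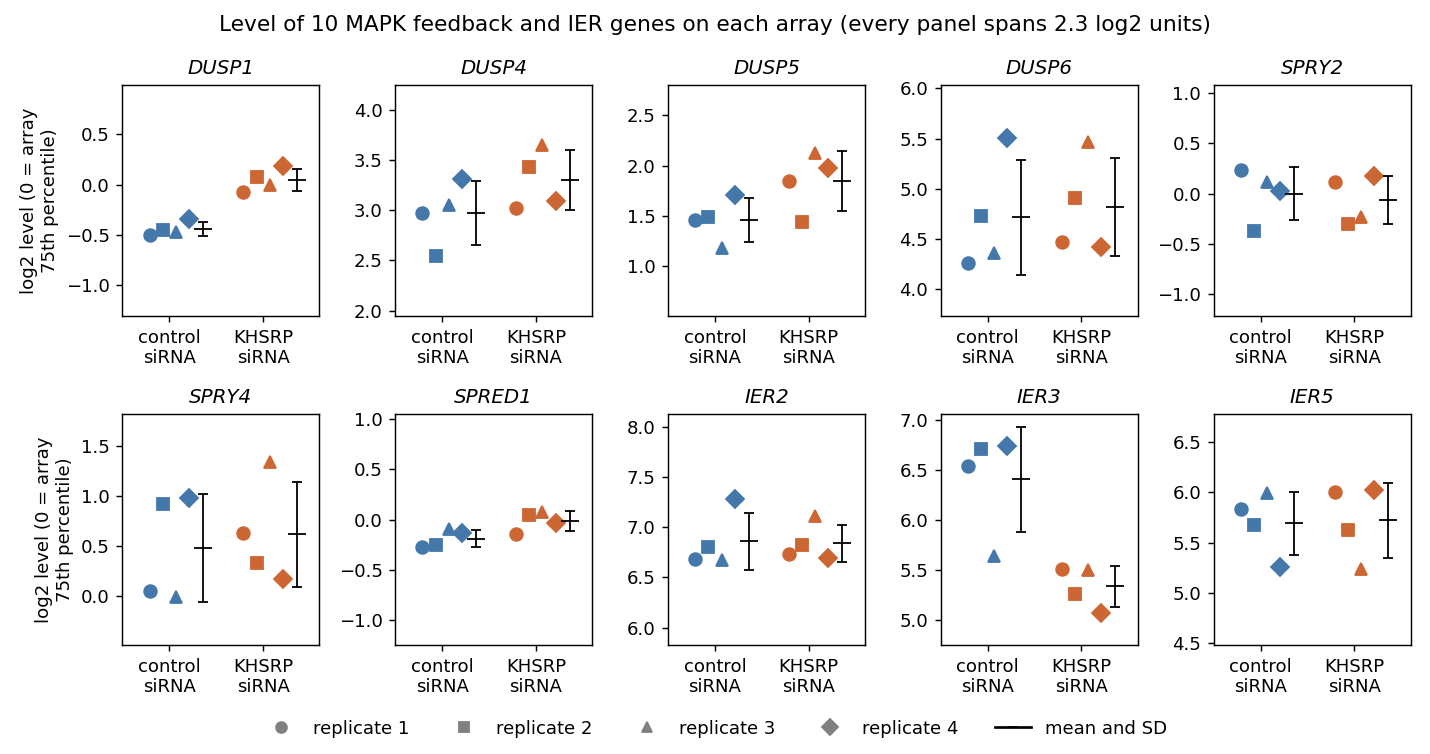
Log2 level of the 10 genes on each array, relative to the 75th percentile of that array, with 4 control siRNA arrays (blue) and 4 KHSRP siRNA arrays (orange) per gene. Symbols mark the replicate, and the black bar gives the mean and SD of the group. The groups are separate for DUSP1 and IER3 and overlap for the other 8 genes, and DUSP6 is highest on control replicate 4 and KHSRP siRNA replicate 3.

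Of the phosphatases, DUSP1 acts in the nucleus on p38, JNK and ERK and is among the first genes to respond to growth factors and stress. Its log2 level (A_23_P110712, 10 spots) was -0.51, -0.45, -0.47 and -0.34 on control replicates 1 to 4, and -0.07, 0.08, -0.0048 and 0.19 on KHSRP siRNA replicates 1 to 4. All KHSRP siRNA arrays were above all control arrays, with a gap of 0.27 between the groups. The means were -0.44 ± 0.07 (SD, n = 4) and 0.05 ± 0.11 (SD, n = 4), a difference of 0.49 (SE 0.11), or 1.40-fold. The difference was 0.48 within the first slide and 0.50 within the second. Leaving out any 1 array kept it between 0.44 and 0.53, while its call was lost in 8 of 8 such settings, and with normexp background correction the difference was 0.29.

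DUSP4 and DUSP5 are nuclear phosphatases induced by ERK, and DUSP5 acts on ERK alone. DUSP4 (A_23_P134935) was at 2.97, 2.54, 3.06 and 3.31 on the control arrays and at 3.02, 3.43, 3.65 and 3.09 on the KHSRP siRNA arrays. The groups overlapped, with means of 2.97 ± 0.32 and 3.30 ± 0.30 (SD, n = 4 each) and a difference of 0.33 (SE 0.20). It was 0.19 without control replicate 2 and 0.21 without KHSRP siRNA replicate 3, and at most 0.44 with another array left out. DUSP5 (A_23_P150018) had control values of 1.46, 1.49, 1.18 and 1.71 and KHSRP siRNA values of 1.84, 1.44, 2.13 and 1.97. Only replicate 2 of the KHSRP siRNA arrays was within the control range, and the difference of the means, 1.46 ± 0.22 and 1.85 ± 0.30 (SD, n = 4 each), was 0.39 (SE 0.18). It was 0.16 within the first slide and 0.61 within the second.

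DUSP6, a cytoplasmic phosphatase specific to ERK and a common marker of ERK output, had control levels of 4.26, 4.73, 4.36 and 5.51 and KHSRP siRNA levels of 4.47, 4.91, 5.47 and 4.42 (A_23_P139704). One array in each group stood above the others, replicate 4 of the controls and replicate 3 of the KHSRP siRNA arrays. The means of 4.72 ± 0.57 and 4.82 ± 0.49 (SD, n = 4 each) differed by 0.10 (SE 0.33), less than the spread within either group. The sign of this difference turned when control replicate 1, control replicate 3 or KHSRP siRNA replicate 3 was left out, within a range from -0.12 to 0.37.

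The sprouty and SPRED genes encode inhibitors that act upstream of RAF. SPRY2 (A_23_P128698) lay between -0.37 and 0.24 on the control arrays and between -0.30 and 0.17 on the KHSRP siRNA arrays, and the means differed by -0.06 (SE 0.17). SPRY4 (A_24_P269062) was at 0.05, 0.91, -0.0082 and 0.98 with control siRNA and at 0.63, 0.33, 1.34 and 0.17 with KHSRP siRNA. Its spread within each group, 0.54 and 0.52 (SD, n = 4 each), was wider than the difference of 0.13 (SE 0.33). A second SPRY4 probe (A_33_P3338423) cleared the background on 3 of 4 controls and 2 of 4 KHSRP siRNA arrays, with levels from -3.73 to -2.09, and was not tested. SPRED1 (A_24_P107859) varied least within its groups, together with DUSP1. It was at -0.27, -0.25, -0.10 and -0.13 with control siRNA and at -0.15, 0.05, 0.08 and -0.03 with KHSRP siRNA. Only KHSRP siRNA replicate 1 fell inside the control range, and the difference was 0.18 (SE 0.11).

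IER3, also known as IEX-1, is a short-lived ERK substrate that acts on cell survival and was the member with the largest difference. Its brighter probe (A_23_P42257) read 6.54, 6.70, 5.64 and 6.74 on control replicates 1 to 4 and 5.51, 5.27, 5.50 and 5.08 on KHSRP siRNA replicates 1 to 4. All 4 KHSRP siRNA arrays were below all 4 control arrays, and control replicate 3, the lowest of its group, left a gap of 0.13. The means were 6.40 ± 0.52 and 5.34 ± 0.21 (SD, n = 4 each). The difference of -1.06 (SE 0.25) is a 2.09-fold lower level, 47.8% of control. The second probe (A_33_P3423551), on the same transcript accession, had means of 4.69 ± 0.41 and 3.71 ± 0.21 (SD, n = 4 each), a difference of -0.98 (SE 0.21), or 50.7% of control. Its groups did not overlap either. At the brighter probe the difference was -1.23 within the first slide and -0.90 within the second. Leaving out 1 array gave -1.32 to -0.95, and the call was kept in 1 of 8 such settings, that without control replicate 3, for each probe.

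IER2 and IER5, the other immediate-early response genes, encode nuclear proteins, and IER5 acts on heat shock factor. IER2 (A_32_P36235) was at 6.68, 6.80, 6.68 and 7.28 with control siRNA and at 6.73, 6.82, 7.11 and 6.69 with KHSRP siRNA, a difference of -0.02 (SE 0.17). As for DUSP6, the highest array of each group was control replicate 4 and KHSRP siRNA replicate 3. IER5 (A_23_P86330) was at 5.83, 5.68, 6.00 and 5.26 with control siRNA and at 6.01, 5.63, 5.24 and 6.03 with KHSRP siRNA. It was lowest on exactly those arrays, and the means of 5.69 ± 0.32 and 5.72 ± 0.37 (SD, n = 4 each) differed by 0.03 (SE 0.22).

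**Figure D2:**
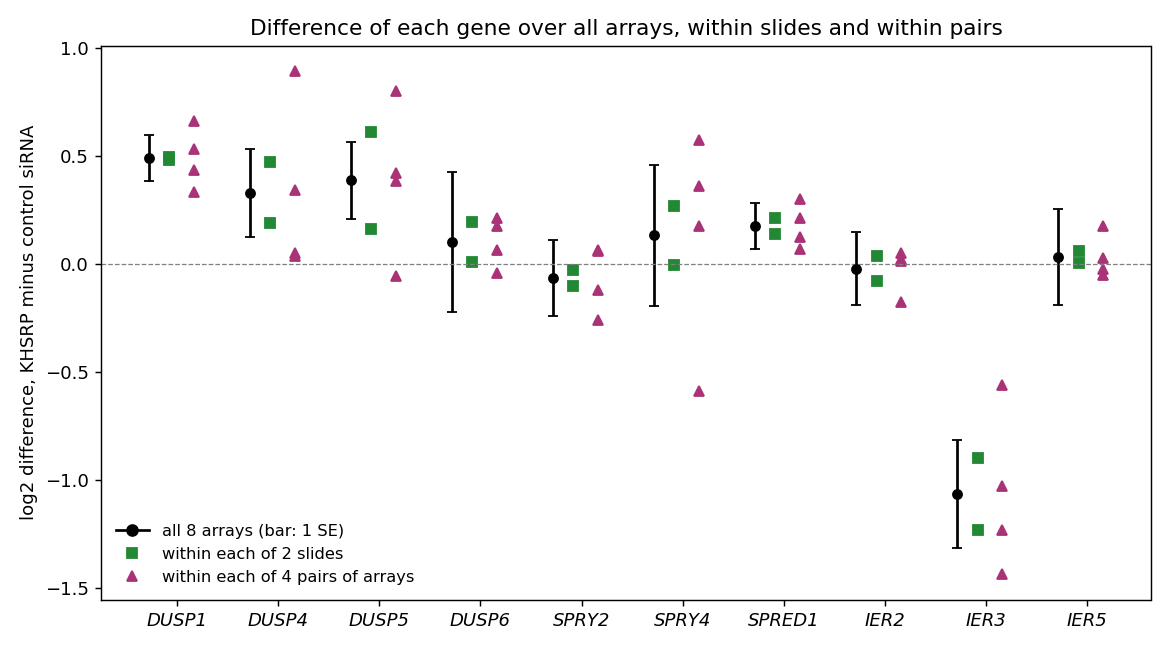
Difference of each gene on the log2 scale, KHSRP siRNA minus control siRNA, over all 8 arrays (black, bar 1 SE), within each of the slides (green) and within each of the 4 pairs of arrays with one number (purple). IER3 lies below 0 and DUSP1, DUSP4 and SPRED1 lie above 0 in every slide and pair, whereas SPRY4 runs from -0.59 to 0.58 between pairs. For IER3 and DUSP1, whose groups do not overlap, any pairing would give these signs. Pairs follow the series matrix. By the scanner numbers DUSP4 is lower with KHSRP siRNA for replicate 4 (3.09 against 3.31).

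The choice of the members named no slide or replicate. The spread within groups enters the comparison they were chosen on, so variation within groups is not fully independent of the choice. One slide carried replicates 1 and 2 of each group, and a second carried replicates 3 and 4. The slide term was fitted beside the group with limma. It was called for 0 of 11 member probes (Benjamini-Hochberg adjusted p from 0.663 to 0.960) and for 0.0% of all tested probes. At an unadjusted p under 0.05 it picked 0 member probes and 2142 of all probes (11.4%). The slide differences of the member probes ran from -0.27 to 0.35. Differences between arrays on the same slide entered the residual of this fit, so 0 calls do not show that the slides were alike.

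A pattern shared by the groups appeared by array number. Each number lies on one slide, so a term for the number includes the slide difference. The series matrix, the authors' own table of these arrays, gives KHSRP siRNA columns 3 and 4 the scanner values of each other, and which assignment is right cannot be told from the sources used here. Arrays with one number in the matrix deviated from their group means together, with correlations across 17229 probes of 0.57, 0.48, 0.86 and 0.86 in the 4 pairs. With the numbers of the scanner files the last pairs gave -0.69 and -0.67. The labels do not say what a number stands for. Control replicate 3 is therefore paired with KHSRP siRNA replicate 4, and control replicate 4 with KHSRP siRNA replicate 3, in what follows, and other arrays with their own number. This pairing was chosen after seeing the data.

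With the matrix numbers as a term beside the group, limma called 41.5% of all tested probes (F test over the 4 numbers, Benjamini-Hochberg adjusted), and 4 of the 10 members, a share near that background. They were DUSP6 (adjusted p = 0.00265), IER5 (adjusted p = 0.00807), IER2 (adjusted p = 0.0258) and SPRY2 (adjusted p = 0.0415). Their count was 2 without control replicate 1, control replicate 3, control replicate 4 or KHSRP siRNA replicate 1 and 1 without KHSRP siRNA replicate 3, where the share of all probes was also lower, from 22.5% to 29.9%. With the numbers of the scanner files 0 members and 0.0% of all probes were called. The p-values above thus rest on the pairing chosen after seeing the data. For DUSP6 the means of the pairs were 4.37, 4.82, 4.39 and 5.49, a range of 1.12, while the KHSRP siRNA array differed from its partner by 0.21, 0.17, 0.06 and -0.04. In this pairing, chosen after seeing that the paired arrays deviated together, the level thus varied between pairs far more than within them. Paired by the scanner numbers, DUSP6 was at 4.36 (control) and 5.47 (KHSRP siRNA) for replicate 3. For replicate 4 it was at 5.51 and 4.42. For IER5 the means of the pairs were 5.92, 5.65, 6.01 and 5.25, and the differences within pairs lay between -0.05 and 0.17. In 8 of the 10 genes the range of the pair means was wider than the difference between the siRNA groups. DUSP1 and IER3, the members with the largest differences, were the others, and the choice of the set bears on this count. A range over 4 means and a single difference are unlike measures, and no share over all probes is given. Nothing is therefore read from the count. IER3 was lower in 4 of 4 pairs (by -1.03, -1.44, -0.56 and -1.23), and DUSP1 higher in 4 of 4 (by 0.43, 0.53, 0.66 and 0.33). Any pairing would give these signs, since the groups of both genes did not overlap. DUSP4 and SPRED1 were also higher in all 4 pairs, by 0.04 to 0.89 and by 0.07 to 0.30. Paired by the scanner numbers, however, DUSP4 was at 3.31 (control) and 3.09 (KHSRP siRNA) for replicate 4.

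**Figure D3:**
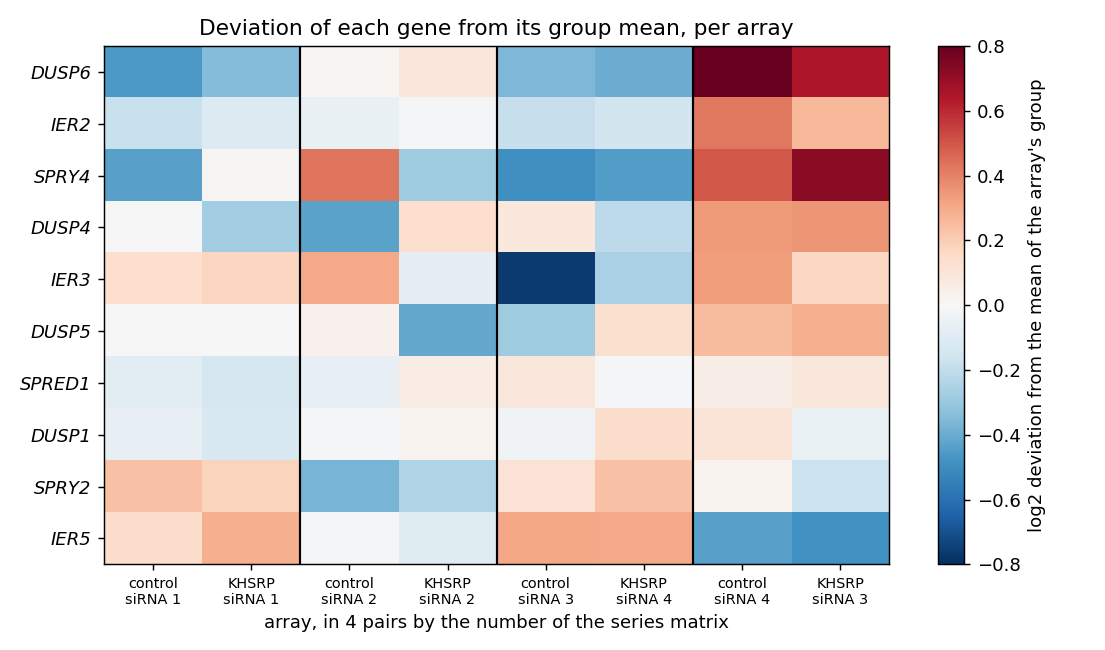
Log2 deviation of each gene (rows) from the mean of the array's own group, for the 8 arrays (columns) in 4 pairs by the number of the series matrix. Red is above and blue below the group mean. In the last pair, control siRNA 4 and KHSRP siRNA 3, DUSP6, IER2 and SPRY4 are high and IER5 is low, and IER3 is lowest on control siRNA 3.

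The likeness of these patterns was measured as Pearson's r of the deviations from the group means over the 8 arrays, which share their labelling and scaling, and is given as a description. Among 103 other genes of the lists, those most like DUSP6 were IER2 (0.98), BRAF (0.97) and RPS6KA5 (0.96), and those most like IER3 were MAPK3 (0.97), DUSP8 (0.95) and KLF6 (0.95). IER3 deviated by -0.77 on control replicate 3, where MAPK3 (-0.33), DUSP8 (0.47) and KLF6 (3.43) also had their lowest control levels. That array weighs heavily in these values. Among the members, DUSP6 and SPRY4 were alike (0.83) and DUSP6 and IER5 ran opposite (-0.97), while the value for IER3 and DUSP1 was -0.10. Squamous markers varied over the same arrays. KRT5, a basal keratin named here after its values were seen, was at 5.84, 4.30, 5.84 and 3.11 on the control arrays and at 5.92, 4.46, 2.92 and 5.98 on the KHSRP siRNA arrays, lowest where DUSP6 was highest. The summed linear level of the 10 squamous markers ran from 217 to 627 times the 75th percentile signal over the control arrays and from 251 to 726 over the KHSRP siRNA arrays, and 0 of the 10 were called between the groups (limma, 1 at an unadjusted p under 0.05). That of the 3 other cell markers bright enough, COL1A1, CD14 and CD68, ran from 1.29 to 3.88 and from 1.51 to 4.74, with 0 of 3 called and 0 at an unadjusted p under 0.05. Their part in the pattern of the members was not tested.

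The rest of the pathway was read from 7 lists of 92 genes, other genes of the pathway, chosen with earlier results of these data known. Of these, 81 were tested, 10 were too dim and RASA2 had no probe matched here, and 5 were called by limma (6.17%, against 5.54% of all probes and 6.19% of all genes), 3 as higher and 2 as lower. Their median difference was 0.09. With the matrix number as a block 26 were called (32.1%, against 30.1% of all probes), and with the scanner number as a block 0 (against 0.832% of all probes). The shares with no block and with the matrix number were thus near the background. Leaving out any 1 array other than KHSRP siRNA replicate 3 brought the 5 to 1 or 2.

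**Figure D4:**
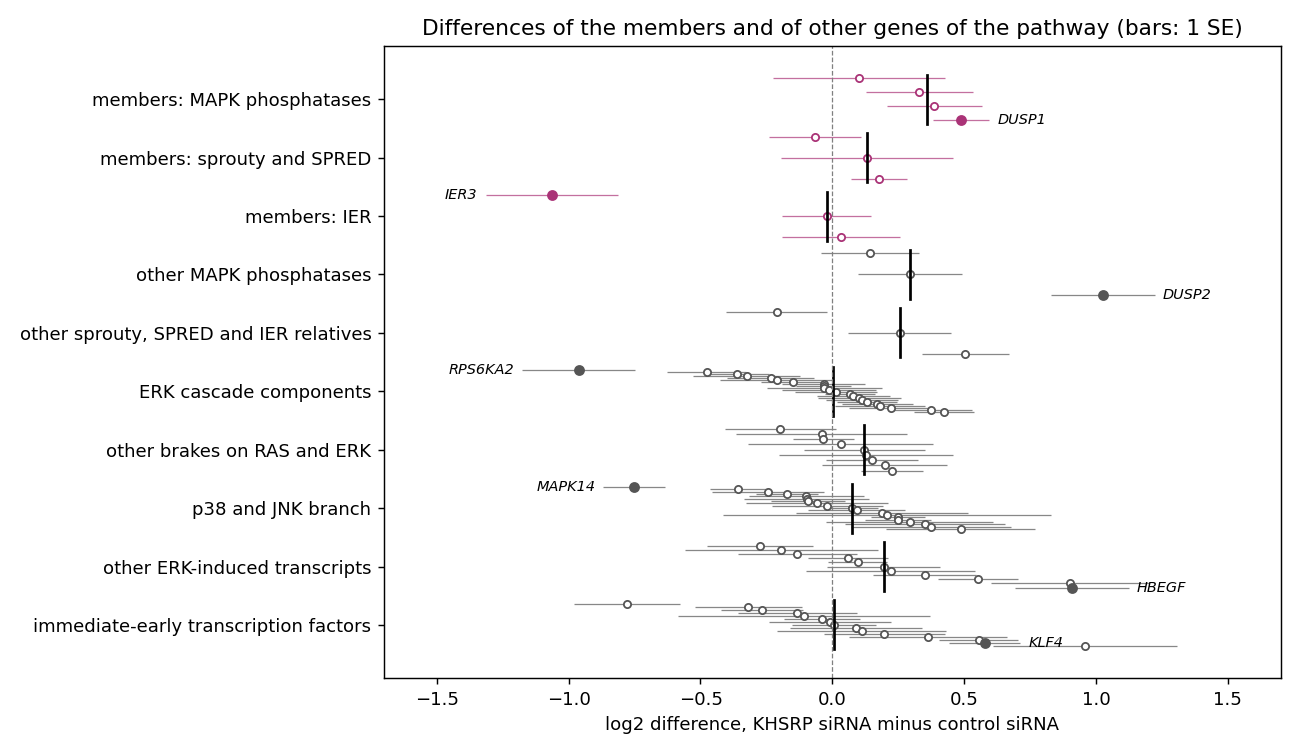
Log2 difference, KHSRP siRNA minus control siRNA, of each tested gene by list, with bars of 1 SE, filled points for genes called by limma and a black line at the median of the list. Members are purple and other genes grey. DUSP2, HBEGF and KLF4 are called above 0 and RPS6KA2 and MAPK14 below 0 among the other genes.

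Among the other MAPK phosphatases 3 of 6 were tested and 1 was called, with a median of 0.29. DUSP2, a nuclear ERK phosphatase of activated cells, rose from -0.66, -0.88, -0.70 and -0.20 on the control arrays to 0.27, 0.12, 0.81 and 0.48 on the KHSRP siRNA arrays, without overlap. The difference was 1.03 (SE 0.20, limma, Benjamini-Hochberg adjusted p = 0.0213). DUSP8, a JNK and p38 phosphatase, differed by 0.14 (SE 0.19) and DUSP9, an ERK phosphatase, by 0.29 (SE 0.20), and neither passed the test. DUSP7, DUSP10 and DUSP16 were too dim. Of the relatives of the sprouty and IER genes, 0 of 3 tested were called by limma and 1 had an unadjusted p under 0.05. SPRY1 differed by 0.51 (SE 0.17, adjusted p = 0.130), SPRED2 by 0.26 (SE 0.20, adjusted p = 0.556) and IER5L, a paralog of IER5, by -0.21 (SE 0.19, adjusted p = 0.645). The other tested probe of SPRY1 differed by 0.49 and that of IER5L by -0.43. With the matrix number as a block SPRY1 (adjusted p = 0.0118) and SPRED2 (adjusted p = 0.0423) passed as higher.

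The cascade that the phosphatases, sprouty and SPRED proteins restrain had no common direction without a block. Of 22 tested components from adaptors to ERK and its kinases, 11 were higher and 11 lower, with a median of 0.0010 and 1 called. That gene was RPS6KA2, an ERK-activated ribosomal S6 kinase, which fell by 0.96 (SE 0.21, limma, adjusted p = 0.0382). The call was lost with slide as a block (adjusted p = 0.0548). Its levels were -0.88, -0.57, -0.95 and -0.37 with control siRNA and -1.47, -1.81, -1.25 and -2.10 with KHSRP siRNA. With the matrix number as a block, 6 of the 22 components passed, 1 of them as higher, against 30.1% of all probes. Of 9 other tested brakes on RAS and ERK, such as NF1 and RASA1, 0 were called by limma, with 0 at an unadjusted p under 0.05 and a median of 0.12.

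In the p38 and JNK branch 1 of 19 tested genes was called, and the median was 0.07. MAPK14, which encodes p38 alpha, fell by 0.75 (SE 0.12, limma, adjusted p = 0.00960) at its 1 probe, from -0.13, -0.14, -0.31 and -0.19 to -0.79, -0.88, -0.93 and -1.16. Its call held without any 1 of the arrays (8 of 8) and was lost with median scaling (adjusted p = 0.0646), without the filter on dim probes (adjusted p = 0.0690) and with the scanner number as a block (adjusted p = 0.0708).

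Without a block, targets of ERK other than the members had no common direction past the test. Of 11 other ERK-induced transcripts tested, 8 were higher and 3 lower, with a median of 0.20 and 1 called. One of the 12 in this list, EPHA4, is also among genes the study chose on these arrays, and its direction is not independent evidence. The called gene, HBEGF, a ligand of the EGF receptor, rose by 0.91 (SE 0.22, limma, adjusted p = 0.0484), from -0.46, -0.57, -0.98 and -0.93 to 0.39, 0.12, -0.36 and 0.54. With the matrix number as a block 6 of these 11 passed, 5 as higher and EPHA4 among them, against 30.1% of all probes. This block was chosen after seeing the data. Of 15 tested immediate-early transcription factors, 8 were higher and 7 lower, with a median of 0.0074 and 1 called. KLF4, a zinc finger factor of epithelial differentiation, rose by 0.58 (SE 0.14, limma, adjusted p = 0.0452). With the matrix number as a block 4 of these 15 passed, 3 of them as higher. Leaving out 1 array kept the call of DUSP2 in 3 of 8 settings and those of RPS6KA2, HBEGF and KLF4 in 1 of 8 each. Normexp background correction lowered all 5 called differences by over 1.5 times, to 0.59 for DUSP2, -0.38 for RPS6KA2, -0.42 for MAPK14, 0.55 for HBEGF and 0.34 for KLF4, of which DUSP2 and MAPK14 stayed called.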

How the data were processed

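The authors hybridised Cy3-labelled RNA of KYSE850 cells to 8 one-colour Agilent arrays and read the spots out in the scanner software (Agilent Feature Extraction, version 11.5.1.1 per the file headers, 12.6 in the submitters' processing notes). The deposited scanner values are linear fluorescence intensity, background-subtracted within the array and not scaled between arrays. The authors also deposited log2 values as a series matrix, made in GeneSpring according to the methods. Each matrix column was compared with the log2 signal relative to the 75th percentile of each array, as deviations of probes from their mean. Every column matched a scanner file (r = 1.00, 17229 probes). Such deviations do not show how the values were centred, and the column medians ran from -0.25 to 0.22.

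Control spots and 265 to 346 outlier spots per array were dropped. Log2 signals were averaged over the spots of a probe and set relative to the 75th percentile of the array. Testing required a probe to have a share of at least 0.5 of its spots well above background throughout the 4 arrays of either group, and 18761 probes passed. Symbols came from RefSeq accessions (GRCh38.p14) for 27241 of 42405 probes, and the tested probe with the highest mean level stood for a gene. All members were named, in other lists the 3 largest changes among called genes and every gene of a list with 5 or fewer tested genes. For IER3 and DUSP6 the 3 genes most alike over the arrays were named as well. The number of arrays limits the precision. The members and lists were chosen with earlier results of these data known.

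The comparison of groups used R 4.3.3 with lmFit and eBayes of limma 3.58.1, two-sided and without a block, and p-values were adjusted by Benjamini-Hochberg over all tested probes. The fit was tested on simulated data, and other steps used Python 3.11.15. The slide and the array number were tested as further terms. Replicate numbers of the scanner files did not pair the arrays (correlations of deviations 0.57, 0.48, -0.69 and -0.67), whereas the numbers of the series matrix did (0.57, 0.48, 0.86 and 0.86). The number term and the block by matrix number were chosen after seeing the data. Alternatives covered the scaling, normexp background correction with an offset of 50 (on median spot brightness, a choice made after seeing the files), the matrix values, the filter, the blocks, the mean of all tested probes of a gene, the methods' t-test and leaving out each array.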

Additional observations from a re-analysis of the deposited data

How the results depend on the processing

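At probe A_23_P16157 KHSRP was called and lower in each of the 18 alternatives listed for it, with its difference between -3.46 and -3.27. At the dim probe A_24_P134235, which no KHSRP siRNA array had well above background, it was lower wherever it was tested, with differences from -3.12 to -0.54, and called in 7 of 8 that left out an array and in 8 of 11 others. Within a slide, 0 probes of any gene were called. Members that turned in sign in some setting were DUSP6, SPRY2, SPRY4, IER2 and IER5, whose differences were smaller than their SE. The difference of DUSP1 moved past its replicate SD once, to 0.29 with normexp correction.

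With IER3 counted at its brighter probe, the 2 called members became 1 with quantile normalization (5.59% of all probes called) and with slide as a block (6.23%), and 0 with median scaling (3.04%), with normexp correction (4.47%) and without a filter on dim probes (0.752%). The second IER3 probe (A_33_P3423551) stayed called with quantile normalization, slide as a block and normexp correction. It lost its call with median scaling and without the filter. Leaving out 1 array gave 0 to 1 (2.59% to 3.87%). The 5 called genes of the pathway lists became 1 with median scaling, 2 with normexp correction and 0 without the filter, and leaving out 1 array gave 1 to 5. With slide as a block they were again 5, with EPHA4 in place of RPS6KA2. The methods' t-test, with Benjamini-Hochberg adjustment, called 4 pathway genes, DUSP2 and MAPK14 among them, and 5.76% of all probes; it kept the call of DUSP1 and lost those of both IER3 probes. DUSP8, at 0.14, came to between -0.024 (without control replicate 3) and 0.22 (without control replicate 2) when 1 array was left out. The 4 members called by array number became 1 without the filter (7.62% of all probes), and leaving out 1 array gave 1 to 5 (22.5% to 38.6%). The causes were not tested.

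With the replicate block of the scanner numbers, 0 members and 0 pathway genes were called, against 0.832% of all probes, and with that of the matrix numbers, 2 and 26, against 30.1%. The array number term called 0 members with the scanner numbers, as for all probes. The slide term called 0 member probes in the settings tried. Median scaling shifted the slide difference of all probes to a median of -0.26 and called 350 probes. A slide term beside the replicate block could not be fitted, since each number lies on one slide. Signal limits the report for the dim SPRY4 probe and for 10 pathway genes too dim to test.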
